A study of Mus musculus with 6 samples.

Results

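The genes that cut, protect and cross-link the extracellular matrix were examined in mouse livers given Nfkbiz, which encodes the nuclear protein IκBζ, or luciferase on an AAV8 vector, an adeno-associated virus that mainly transduces hepatocytes in mice. The set holds every gene whose symbol is Mmp, Timp, Adamts or Loxl directly followed by a digit, together with Lox, if a probe set of the array is annotated to that symbol alone. By this rule 41 of 18193 genes were taken, read by 78 probe sets. They comprised 18 matrix metalloproteinases (MMPs), 4 tissue inhibitors of metalloproteinases (TIMPs), 15 ADAMTS proteases and 4 lysyl oxidases. Loxl2 shares both of its probe sets with another symbol and, like Adamts2 and Adamts13, is not analysed here.

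Livers of 3 C57BL/6 mice injected intravenously with AAV8-Nfkbiz were compared with those of 3 C57BL/6 mice injected with AAV8-luciferase. All 6 mice were put on CDAHFD, a high-fat diet that is deficient in choline and produces steatosis and fibrosis, from 4 weeks after the injection, and the saline-perfused liver was taken after 4 weeks of feeding. The sources used here do not give the promoter that drives the inserts or the sex and age of the mice. Livers on a normal diet are not analysed here, so every value belongs to the diet. Each liver was read on 1 Affymetrix 3′ array, with intensities computed by the MAS5 method on a linear scale.

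MMPs are zinc proteases that are made as inactive proenzymes and together can degrade all main components of the matrix. TIMPs bind to their active sites and block them. ADAMTS proteases carry thrombospondin repeats and act on proteoglycans, procollagens and other matrix proteins, and lysyl oxidases are copper enzymes that oxidise lysines in collagen and elastin so that fibres become cross-linked. In the fibrotic liver, activated stellate cells make much of the Mmp2, Timp1 and lysyl oxidase, while macrophages are a known source of Mmp12 and Mmp13.

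The vector was seen on the arrays. Nfkbiz probe set 1448728_a_at read 4424, 4073 and 2006 on the AAV8-Nfkbiz arrays, against 221, 230 and 180 on the AAV8-luciferase arrays. Its log2 difference was 3.98 ± 0.27 (SE; limma adjusted p = 0.000901 over 27022 probe sets). The other Nfkbiz probe sets, whose position in the transcript and in the insert is not given in the sources, had differences of 0.30 ± 0.19 and -0.89 ± 0.54. The one at 0.30, 1417483_at, was the brightest by mean log2 intensity and stands for Nfkbiz in the fit over genes. That fit therefore does not show the vector. Hepatocyte markers were bright throughout, the albumin gene Alb reading at least 38751 on every array. Arrays of the same group correlated at 0.962 to 0.971 across genes and arrays of different groups at 0.959 to 0.968. On the first principal component, with 26.6% of the variance, AAV8-Nfkbiz arrays scored from -37.8 to -3.75 and AAV8-luciferase arrays from 10.1 to 31.2, without overlap. The third AAV8-luciferase array stood apart on the second principal component, with a score of 45.1, the scores of the other 5 running from -21.1 to -3.11.

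Of the 41 genes, 29 had a probe set above the intensity filter, which removed the dimmest 40% of probe sets, and were tested. None of the 29 passed an adjusted p of 0.05 in limma's fit over 13312 genes, in which 0.225% of genes passed. The collagenase gene Mmp13 was higher on all 3 AAV8-Nfkbiz arrays and had the smallest adjusted p of the set, 0.187. The lysyl oxidase gene Loxl4 and the ADAMTS gene Adamts10 had negative differences, with adjusted p-values of 0.352 and 0.387. These 3 genes, 1 higher and 2 lower, had an unadjusted p below 0.05, which was met by 12.0% of all genes tested, so that the count of 3 of 29 lay near the background. By direction, the shares of all genes were 5.03% higher and 7.00% lower. All 3 AAV8-Nfkbiz arrays stood above the luciferase arrays for Mmp13 and below them for Mmp19 and Timp4, so 3 of the 29 genes showed no overlap, as did 18.0% of all genes.

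The signs were counted by family, without a test between families. Among the 12 MMPs tested, 8 had a positive log2 difference and the median was 0.12. Among the 9 ADAMTS genes, 7 were negative with a median of -0.47, and all 4 lysyl oxidases were negative with a median of -0.47. The 4 TIMPs were split evenly with a median of -0.17. Over the 29 genes the median was -0.18 with 17 negative, against a median of -0.02 and 52.2% negative over all genes tested. The standard errors of the single genes lay between 0.13 and 0.57.

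**Figure D1:**
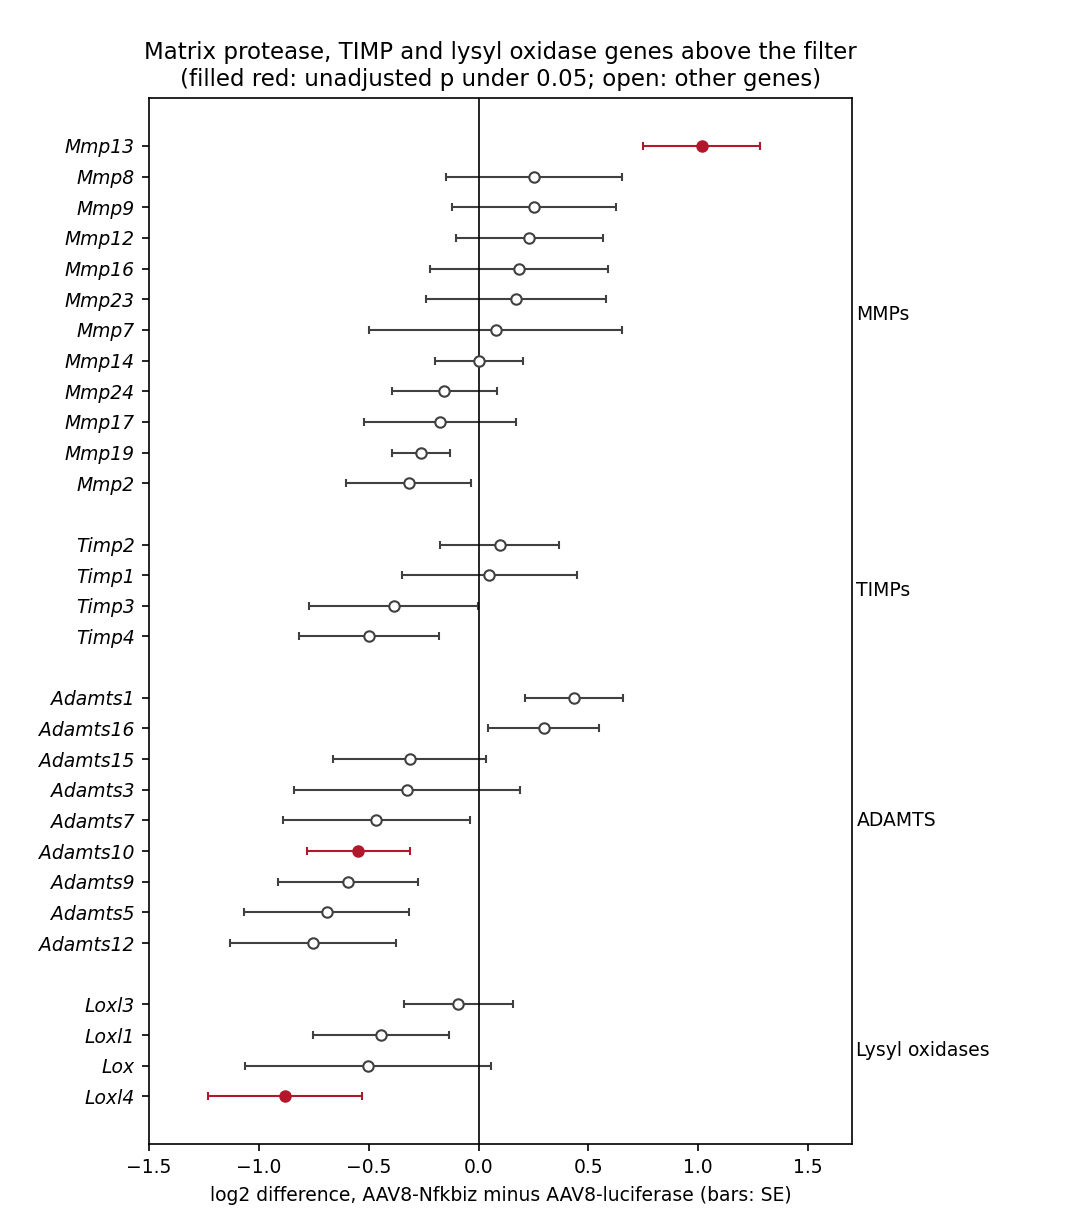
Log2 difference in MAS5 intensity, AAV8-Nfkbiz minus AAV8-luciferase, for the 29 matrix genes above the filter (points; bars are limma's SE; 3 arrays per group), grouped by family. Mmp13 lies alone on the right at 1.02, and all 4 lysyl oxidases and 7 of 9 ADAMTS genes lie left of 0.

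Interstitial collagenases open the triple helix of fibrillar collagen, and in rodents Mmp13 is the principal one. Mmp13 read 622, 289 and 484 on the AAV8-Nfkbiz arrays, against 225, 200 and 234 on the AAV8-luciferase arrays. The luciferase arrays were nearly level, and the lowest AAV8-Nfkbiz array stood above all of them. The means were 465 ± 167 in AAV8-Nfkbiz livers and 219.6 ± 17.6 in AAV8-luciferase livers (SD, n = 3 each). On the log2 scale, as a ratio of geometric means, the level was 2.02-fold higher (log2 difference 1.02 ± 0.26 SE, 95% interval 0.43 to 1.60, limma adjusted p = 0.187). Without the first AAV8-Nfkbiz array the log2 difference was 0.77, without the second it was 1.32, and without the third AAV8-luciferase array, which stood apart, it was 1.06. Mmp8, the neutrophil collagenase gene, read 152, 75.4 and 76.5 in AAV8-Nfkbiz livers and 85.9, 60.8 and 99.6 in AAV8-luciferase livers, and these ranges overlapped (log2 difference 0.25 ± 0.40). Mmp1a and Mmp1b, the mouse counterparts of the human collagenase gene MMP1, were below the filter.

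Kupffer cell markers ran in the same direction as Mmp13. All 10 markers tested (Clec4f, Timd4, Vsig4, Cd5l, Marco, Folr2, C1qa, C1qb, C1qc and Adgre1) had a positive difference and an unadjusted p below 0.05, which 5.03% of all genes met in that direction. Their median difference was 0.88, the groups did not overlap for 8 of them (18.0% of all genes in either direction), and 0 passed limma's adjusted p of 0.05. Their summed intensity was 46494, 51441 and 38633.5 on the AAV8-Nfkbiz arrays and 25042, 34503 and 22112 on the AAV8-luciferase arrays. The second AAV8-Nfkbiz array, with the lowest Mmp13 of its group, had the highest Kupffer sum. The part of these cells in the Mmp13 difference was not tested, and in whole liver RNA more cells of a type and more RNA per cell cannot be told apart.

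Mmp13 lies at the edge of a cluster of Mmp genes on mouse chromosome 9, so its neighbours were set beside it. In the order of the RefSeq annotation of GRCm38.p6 the 9 genes on the array are Mmp13, Mmp12, Mmp1b, Mmp3, Mmp1a, Mmp10, Mmp8, Mmp20 and Mmp7. The 4 tested had log2 differences of 1.02 (Mmp13), 0.23 (Mmp12), 0.25 (Mmp8) and 0.08 (Mmp7), and the other 5 were below the filter. Promoters of many MMP genes are known to carry a binding motif of the transcription factor AP-1 close to the start of transcription. The 120 bases before the RefSeq start of each gene are shown to compare this stretch between Mmp13 and its neighbours, 5′ to 3′ on the strand of the gene, with matches to the AP-1 letters TGANTCA in capitals (N is any base).
Mmp13: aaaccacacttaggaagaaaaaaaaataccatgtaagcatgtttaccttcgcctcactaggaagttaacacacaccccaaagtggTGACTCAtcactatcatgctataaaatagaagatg
Mmp12: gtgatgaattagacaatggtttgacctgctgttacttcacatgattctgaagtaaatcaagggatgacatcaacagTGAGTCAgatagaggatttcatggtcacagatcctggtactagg
Mmp1b: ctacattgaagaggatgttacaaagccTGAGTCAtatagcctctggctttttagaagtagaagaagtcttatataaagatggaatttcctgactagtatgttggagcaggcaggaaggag
Mmp3: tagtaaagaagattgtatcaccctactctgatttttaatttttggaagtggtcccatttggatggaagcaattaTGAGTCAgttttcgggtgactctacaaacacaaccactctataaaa
Mmp1a: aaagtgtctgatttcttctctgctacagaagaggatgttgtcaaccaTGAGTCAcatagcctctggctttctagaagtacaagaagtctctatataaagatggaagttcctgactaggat
Mmp10: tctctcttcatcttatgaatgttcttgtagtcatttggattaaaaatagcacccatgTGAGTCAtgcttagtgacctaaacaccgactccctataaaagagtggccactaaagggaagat
Mmp8: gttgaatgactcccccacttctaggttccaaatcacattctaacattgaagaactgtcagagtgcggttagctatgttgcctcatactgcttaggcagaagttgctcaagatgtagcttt
Mmp20: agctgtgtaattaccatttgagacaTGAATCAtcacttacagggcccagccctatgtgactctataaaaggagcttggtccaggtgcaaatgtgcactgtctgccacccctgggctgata
Mmp7: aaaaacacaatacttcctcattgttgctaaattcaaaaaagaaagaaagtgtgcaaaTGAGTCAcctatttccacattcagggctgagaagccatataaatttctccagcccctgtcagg

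These stretches were taken from RefSeq on GRCm38.p6. On the plus strand they are chr9:7272394-7272513 for Mmp13, chr9:7347254-7347373 for Mmp12, chr9:7445702-7445821 for Mmp3, chr9:7464021-7464140 for Mmp1a, chr9:7502222-7502341 for Mmp10, chr9:7558309-7558428 for Mmp8, chr9:7628111-7628230 for Mmp20 and chr9:7691970-7692089 for Mmp7. The stretch of Mmp1b is chr9:7388027-7388146 on the minus strand. For Mmp12 and Mmp7, which have 2 annotated starts each, the start whose window holds a match is shown. The match lay 35 bases before the start in Mmp13, and no match lay in the window of Mmp8. Over all 11 annotated starts of the 9 genes, 8 windows held a match, and of the 7 genes with 1 start, 6 did. Of all genes in the table, 3.96% held one in the 120 bases before any of their starts. In the 250 bases before the start, read on both strands, 8 of the 24 genes of the set with a promoter in the RefSeq table held TGANTCA, all of them in this cluster, and 7.82% of all 27025 genes in the table did. A κB motif of 10 letters with 1 open position, searched in the same way, was in 0 of the 24 and in 0.414% of all genes. A motif this rare would be missing from most sets of 24 genes, so the search cannot tell the set from the background. All 9 genes of the cluster were among the 24. The remaining genes of the set, Mmp2, Mmp9, Mmp19, Adamts5, Adamts10, Lox and Loxl1 among them, were not searched for either motif. For these genes it is therefore not known whether a match lies outside the cluster. A match describes letters only and shows no binding.

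Mmp12 differed more between mice of one group than between the vectors. Mmp12, the macrophage metalloelastase gene, read 4293, 2030 and 2029 on the AAV8-Nfkbiz arrays and 3629, 1742 and 1728 on the AAV8-luciferase arrays. The first array of each group was high and the other 4 were close together, so the groups overlapped widely (log2 difference 0.23 ± 0.34). Markers of recruited and lipid-associated macrophages, of which 8 of 10 were tested, summed to 22922, 17100.4 and 19255 in AAV8-Nfkbiz livers and to 28558, 16302 and 16363 in AAV8-luciferase livers. The same arrays were thus highest for this sum, and its part in the Mmp12 values was not tested. The difference of Mmp12 was -0.13 without the first AAV8-Nfkbiz array and 0.59 without the first AAV8-luciferase array.

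The gelatinase genes Mmp2 and Mmp9, whose products degrade denatured collagen and basement membrane collagen, did not pass the test. Mmp2 read 553, 645 and 651 on the AAV8-Nfkbiz arrays and 1207, 795 and 469 on the AAV8-luciferase arrays, so the luciferase arrays enclosed the others. Its log2 difference was -0.32 ± 0.28 on this probe set. A second probe set, 1416136_at, read 284, 396 and 418 in AAV8-Nfkbiz livers and 1291, 704 and 366 in AAV8-luciferase livers, with a log2 difference of -0.94 ± 0.38 (limma adjusted p = 0.431 over 27022 probe sets). Mmp9, a gelatinase of neutrophils and macrophages, read 109.8, 88.3 and 101 in AAV8-Nfkbiz livers and 129, 76.1 and 59.2 in AAV8-luciferase livers (0.25 ± 0.37). The 6 neutrophil markers above the filter, of 11 listed, summed to 2957, 1582 and 1366 in AAV8-Nfkbiz livers and 1598, 1144 and 1122 in AAV8-luciferase livers. The first AAV8-Nfkbiz array was highest for that sum and for Mmp8. Most of the sum came from S100a8 and S100a9, which read 1433 and 960 on that array. Ngp was also highest there, but Elane was highest on the second AAV8-Nfkbiz array, Mpo on the third and Csf3r on the third AAV8-luciferase array. The part of neutrophils was not tested.

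Mmp7, the gene of matrilysin, which injured bile duct cells are known to express, had the largest standard error of the 29 genes. It read 89.3, 198 and 298 on the AAV8-Nfkbiz arrays and 366, 71.2 and 172 on the AAV8-luciferase arrays, a log2 difference of 0.08 ± 0.57. Both the highest and the lowest of the 6 arrays were luciferase arrays. Cholangiocyte markers, 4 of 7 above the filter, summed to 323, 409 and 564 in AAV8-Nfkbiz livers and 769, 512 and 403 in AAV8-luciferase livers. The first AAV8-luciferase array was highest and the first AAV8-Nfkbiz array lowest for this sum, and its part in the Mmp7 values was not tested.

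None of the membrane-bound MMPs passed the test. Mmp14, whose product MT1-MMP cleaves collagen at the cell surface and activates pro-MMP2, read 1384, 1227 and 1778 on the AAV8-Nfkbiz arrays and 1859, 1423 and 1139 on the AAV8-luciferase arrays. The log2 difference was 0.00 ± 0.20 with a 95% interval from -0.44 to 0.45. Changes within that interval are thus not resolved. The interval is not the size of change that would pass the adjusted test, which Mmp13 with a difference of 1.02 did not pass. Its other probe sets, 1416572_at and 1440920_at, had differences of 0.0042 and -0.15. Mmp16, Mmp17 and Mmp24, further membrane-type MMP genes, had differences of 0.18 ± 0.40, -0.18 ± 0.35 and -0.16 ± 0.24. Mmp23, whose product is anchored by a signal sequence at its start, had 0.17 ± 0.41. Another Mmp23 probe set, 1417281_a_at, lay below the filter and was not tested. It read 20.7, 22.2 and 20.7 on the AAV8-Nfkbiz arrays and 113, 64.0 and 73.6 on the AAV8-luciferase arrays, lower without overlap.

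Mmp19 was lower by a small margin on all 3 AAV8-Nfkbiz arrays. This gene of a widely expressed secreted MMP read 700.4, 733 and 681 on the AAV8-Nfkbiz arrays and 875, 841 and 819.6 on the AAV8-luciferase arrays. The groups did not overlap and the arrays within each lay close together. The log2 difference was -0.26 ± 0.13 (limma adjusted p = 0.461). The second Mmp19 probe set, 1421976_at, read 397, 418 and 446 in AAV8-Nfkbiz livers and 459, 535 and 359 in AAV8-luciferase livers, and there the groups overlapped (-0.08 ± 0.19).

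For 3 of the 4 TIMP genes the luciferase livers spread far more widely than the AAV8-Nfkbiz livers. Timp1, the inhibitor most often used as a marker of active fibrosis, read 374, 269.7 and 361 on the AAV8-Nfkbiz arrays and 604, 348 and 157 on the AAV8-luciferase arrays. Its log2 difference was 0.05 ± 0.40 (95% interval -0.84 to 0.94), so a large change either way was not resolved. Timp3, which binds to the matrix and also blocks ADAMTS proteases, read 425, 543 and 586 in AAV8-Nfkbiz livers and 1055, 919 and 312 in AAV8-luciferase livers (-0.39 ± 0.38). Timp2, which takes part in the activation of pro-MMP2, read 813, 943 and 1170.4 in AAV8-Nfkbiz livers and 1344, 943 and 579.9 in AAV8-luciferase livers (0.10 ± 0.27). In all 3 genes the highest and the lowest of the 6 arrays were both luciferase arrays, the first and the third.

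Timp4, the remaining inhibitor gene, read 96.9, 97.2 and 66.6 on the AAV8-Nfkbiz arrays and 144, 108 and 113 on the AAV8-luciferase arrays. The groups did not overlap, and the log2 difference was -0.50 ± 0.32 (limma adjusted p = 0.571).

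**Figure D2:**
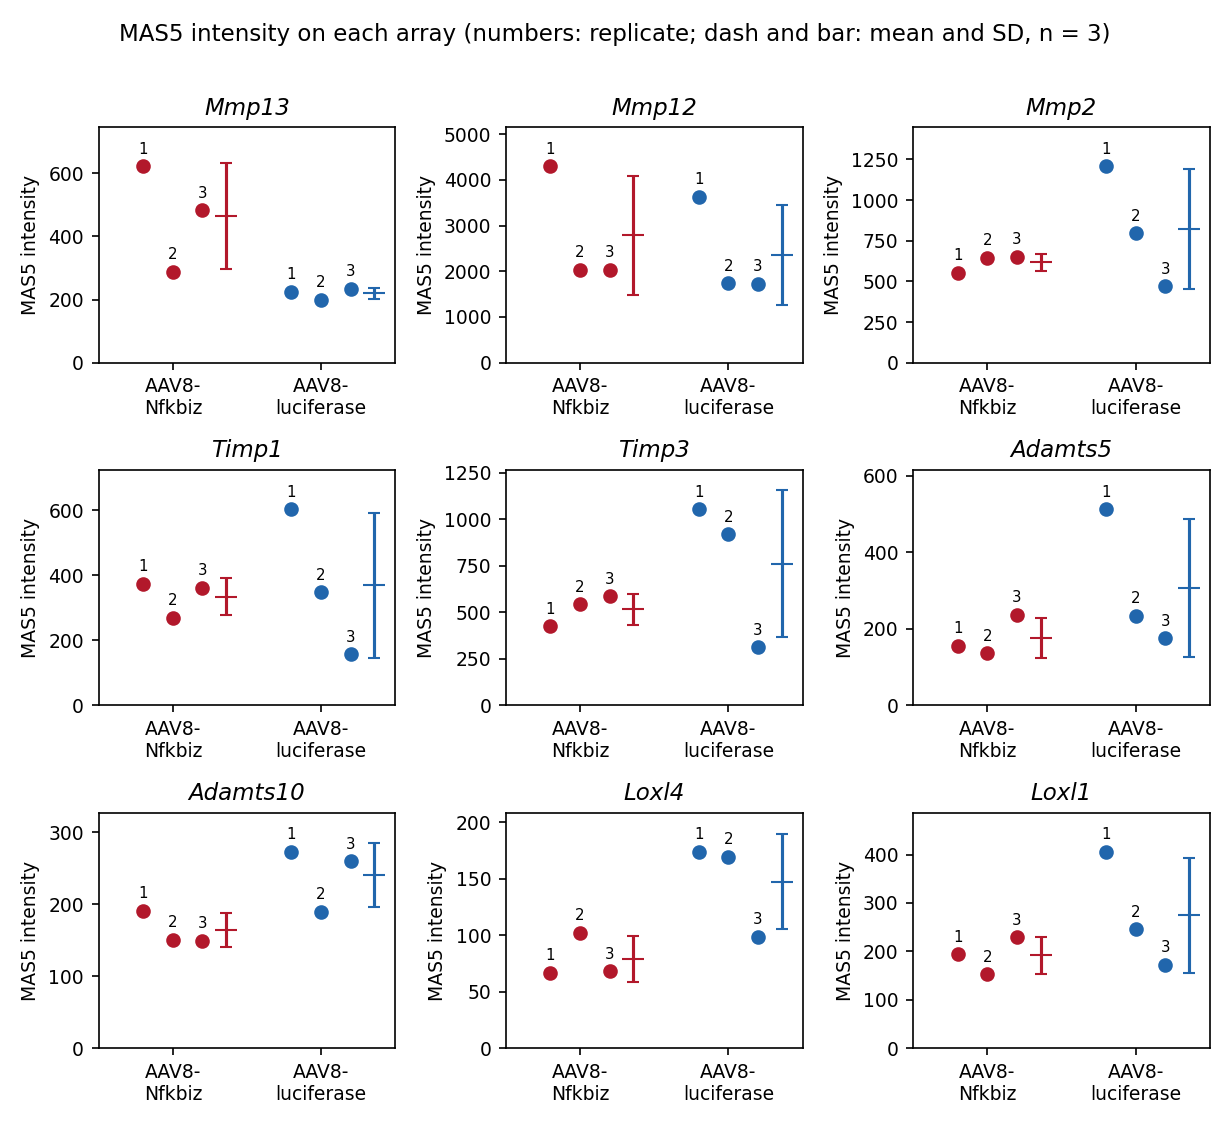
MAS5 intensity on each array for 9 of the genes, with AAV8-Nfkbiz arrays in red and AAV8-luciferase arrays in blue (numbers give the replicate; dash and bar give mean and SD, n = 3). The groups are apart for Mmp13, whereas for Mmp2, Timp1 and Timp3 luciferase arrays 1 and 3 lie on either side of all AAV8-Nfkbiz arrays.

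The ADAMTS proteoglycanases cleave aggrecan and versican. Adamts5 read 156, 136 and 237 on the AAV8-Nfkbiz arrays and 512, 234 and 176 on the AAV8-luciferase arrays, with a log2 difference of -0.69 ± 0.38. Adamts9 read 172, 125 and 169 in AAV8-Nfkbiz livers and 354, 239 and 147 in AAV8-luciferase livers (-0.59 ± 0.32). Both genes overlapped between the groups, and in both the first luciferase array was far above the rest. Adamts15 had a difference of -0.31 ± 0.35. Adamts1, whose product cleaves versican, went the other way, at 882, 580.3 and 879 in AAV8-Nfkbiz livers and 568, 727 and 441 in AAV8-luciferase livers (0.43 ± 0.22, limma adjusted p = 0.477).

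Among the remaining ADAMTS genes the differences were mostly negative. Adamts10, which acts on fibrillin microfibrils, read 191, 150.4 and 149.6 on the AAV8-Nfkbiz arrays and 273, 189.7 and 259.6 on the AAV8-luciferase arrays. Its log2 difference was -0.55 ± 0.23, and the groups overlapped only because the first AAV8-Nfkbiz array stood just above the second AAV8-luciferase array. Without the first AAV8-luciferase array the difference of Adamts10 was -0.45. Adamts12 and Adamts7, whose products cleave cartilage oligomeric matrix protein, had differences of -0.75 ± 0.38 and -0.47 ± 0.43. Adamts12 read 105, 53.6 and 86.1 in AAV8-Nfkbiz livers and 192, 102 and 119 in AAV8-luciferase livers. The procollagen N-proteinase gene Adamts3 had -0.32 ± 0.51, and Adamts16 had 0.30 ± 0.25.

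The lysyl oxidases were all lower in the mean of the AAV8-Nfkbiz livers, and none passed an adjusted p of 0.05. Loxl4, a member with scavenger receptor domains, read 66.7, 102 and 68.3 on the AAV8-Nfkbiz arrays and 174, 169.6 and 98.8 on the AAV8-luciferase arrays. The third luciferase array lay just below the second AAV8-Nfkbiz array, so the groups overlapped by these arrays alone. The log2 difference of Loxl4 was -0.88 ± 0.35 (95% interval -1.66 to -0.11, limma adjusted p = 0.352). It lay between -1.15 and -0.74 when 1 array was left out. Another Loxl4 probe set, 1421153_at, lay below the filter and was not tested. It read 47.2, 19.3 and 81.2 on the AAV8-Nfkbiz arrays and 48.3, 58.9 and 37.6 on the AAV8-luciferase arrays, with means of 49.2 and 48.3. Loxl1, needed for elastic fibres, read 194, 153 and 229.6 in AAV8-Nfkbiz livers and 405, 246 and 172 in AAV8-luciferase livers (-0.44 ± 0.31).

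Lox, the founding member of the family, was read by probe sets that differed in size of effect. The brighter one read 28.7, 69.4 and 78.5 on the AAV8-Nfkbiz arrays and 134, 73.7 and 45.2 on the AAV8-luciferase arrays, a log2 difference of -0.50 ± 0.56. The other, 1416121_at, read 19.7, 15.9 and 79.9 in AAV8-Nfkbiz livers and 237, 96.7 and 41.9 in AAV8-luciferase livers, a log2 difference of -1.76 ± 0.78 (limma adjusted p = 0.464 over the probe sets). Some of these readings lie below the filter intensity of 47.4, and both probe sets overlapped between the groups. Loxl3, which has such domains too, had a difference of -0.09 ± 0.25.

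Several probe sets of 1 gene did not always give the same sign. Of the 29 genes, 10 had at least 2 probe sets above the filter, and for 5 of these (Adamts9, Mmp14, Mmp24, Timp2 and Timp3) the signs were mixed. Timp2 had 5 such probe sets with log2 differences from -0.69 (1454677_at) to 0.10 (1460287_at, the brightest), the other 3 being -0.54, -0.45 and 0.07. Probe set 1454677_at read 488, 699.5 and 811 on the AAV8-Nfkbiz arrays and 1678, 1061 and 649.7 on the AAV8-luciferase arrays. Its first luciferase array was the highest of all 6, as on the other Timp2 probe sets above the filter. The 4 probe sets of Timp3 had differences of -0.39, -0.32, -0.09 and 0.20. The dimmer probe sets of Adamts9 and Mmp24 had positive differences of 0.10 ± 0.29 and 0.45 ± 0.42. The 3 probe sets of Adamts5 had the same sign, at -0.69, -0.63 and -0.56. Of 46 probe sets of the set above the filter, 0 passed an adjusted p of 0.05 (0.0703% of all probe sets did), and 5 had an unadjusted p below 0.05, 1 higher and 4 lower, where 10.6% of all probe sets did (4.14% higher and 6.47% lower). The groups did not overlap for 1 probe set that was higher and 2 that were lower, against 7.03% higher and 9.69% lower of all probe sets. Of the 46, 28 had a negative difference, against 53.0% of all probe sets.

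**Figure D3:**
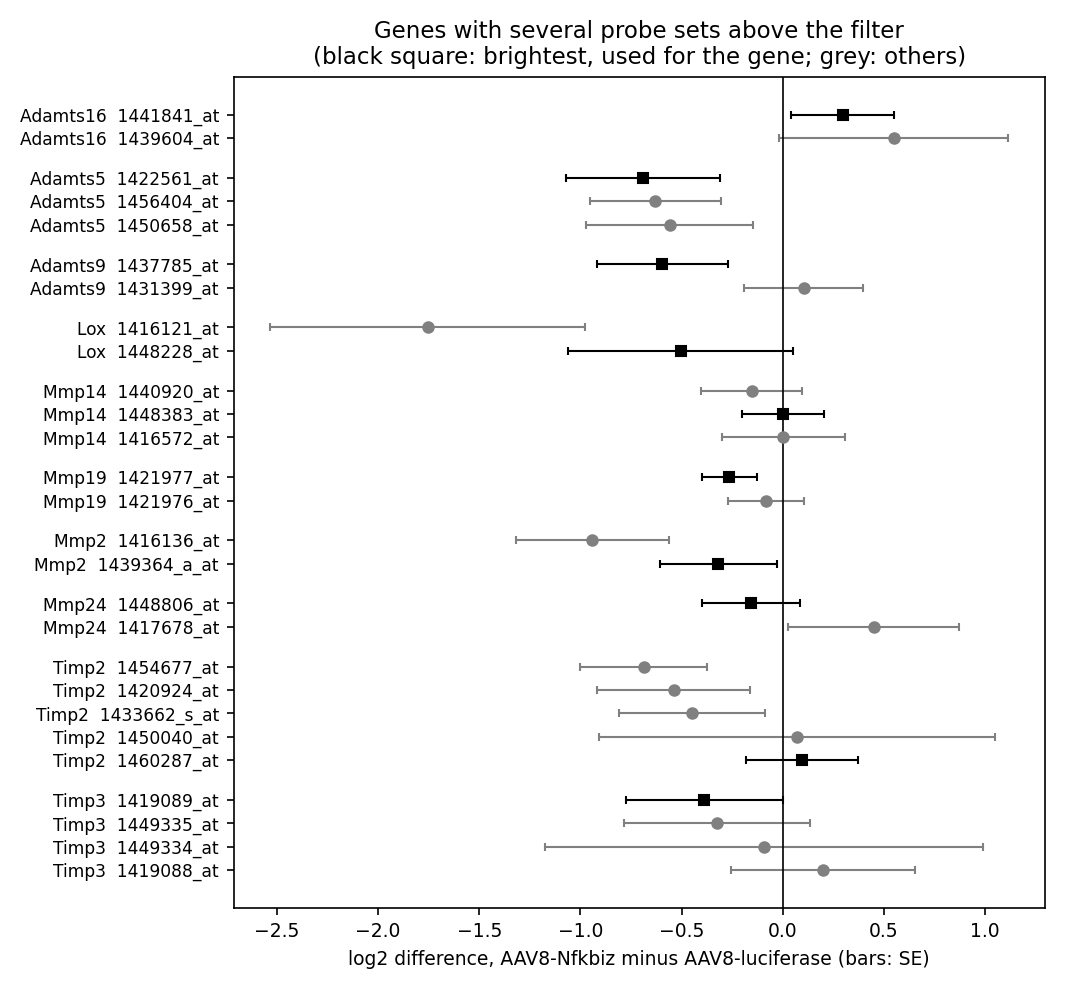
Log2 difference, AAV8-Nfkbiz minus AAV8-luciferase, of each probe set of the 10 genes with several probe sets above the filter (bars are limma's SE; black squares mark the brightest probe set of a gene). Probe sets of Adamts5 lie together between -0.69 and -0.56, while those of Timp2 run from -0.69 to 0.10 and those of Lox are -1.76 and -0.50.

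A feature that the genes shared was their order across the luciferase livers. The first AAV8-luciferase array was the highest of all 6 arrays for 20 of the 29 genes, a position it held for 23.4% of all genes tested. The third AAV8-luciferase array was the lowest for 11 of the 29, against 21.1% of all genes. The luciferase arrays ran from the first over the second to the third in 18 of 29 genes, including all 3 of Mmp2, Timp1 and Timp3, against 23.9% of all genes. Mmp13 was not among the 18. The median SD of log2 intensity within the groups was 0.31 in AAV8-Nfkbiz livers and 0.47 in AAV8-luciferase livers for the set, and 0.21 and 0.23 for all genes.

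Marker lists were read array by array beside that order. As medians of the deviation from each gene's mean over 6 arrays, the 29 genes stood at -0.07, -0.18 and -0.0017 on the AAV8-Nfkbiz arrays and at 0.53, 0.11 and -0.33 on the AAV8-luciferase arrays. The 10 stellate cell and myofibroblast markers tested, of 11 listed, stood at -0.29, -0.15 and 0.08 on the AAV8-Nfkbiz arrays and at 0.52, 0.05 and -0.15 on the AAV8-luciferase arrays. Both sets were thus highest on the first luciferase array. The 25 matrix substrates tested stood at -0.13, -0.40 and -0.05 on the AAV8-Nfkbiz arrays and at 0.55, 0.26 and -0.23 on the AAV8-luciferase arrays, the same order among the luciferase livers. The summed intensity of the stellate cell markers was 10004, 10412 and 14505 in AAV8-Nfkbiz livers and 17070, 12827 and 11735 in AAV8-luciferase livers. The 4 cholangiocyte markers tested, of 7 listed, had the same order among the luciferase livers, at 0.85, 0.25 and -0.03. On the AAV8-Nfkbiz arrays they stood at -0.70, -0.12 and 0.32. Kupffer and endothelial markers did not follow that order. Kupffer markers stood at -0.80 on the first luciferase array. Endothelial markers, all 9 tested, were lowest on the third luciferase array, with a median deviation of -0.79 and a sum of 4898, against 8137 and 10082 on the other luciferase arrays and 8526 to 10626 on the AAV8-Nfkbiz arrays. The part of these cell types in the values was not tested.

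**Figure D4:**
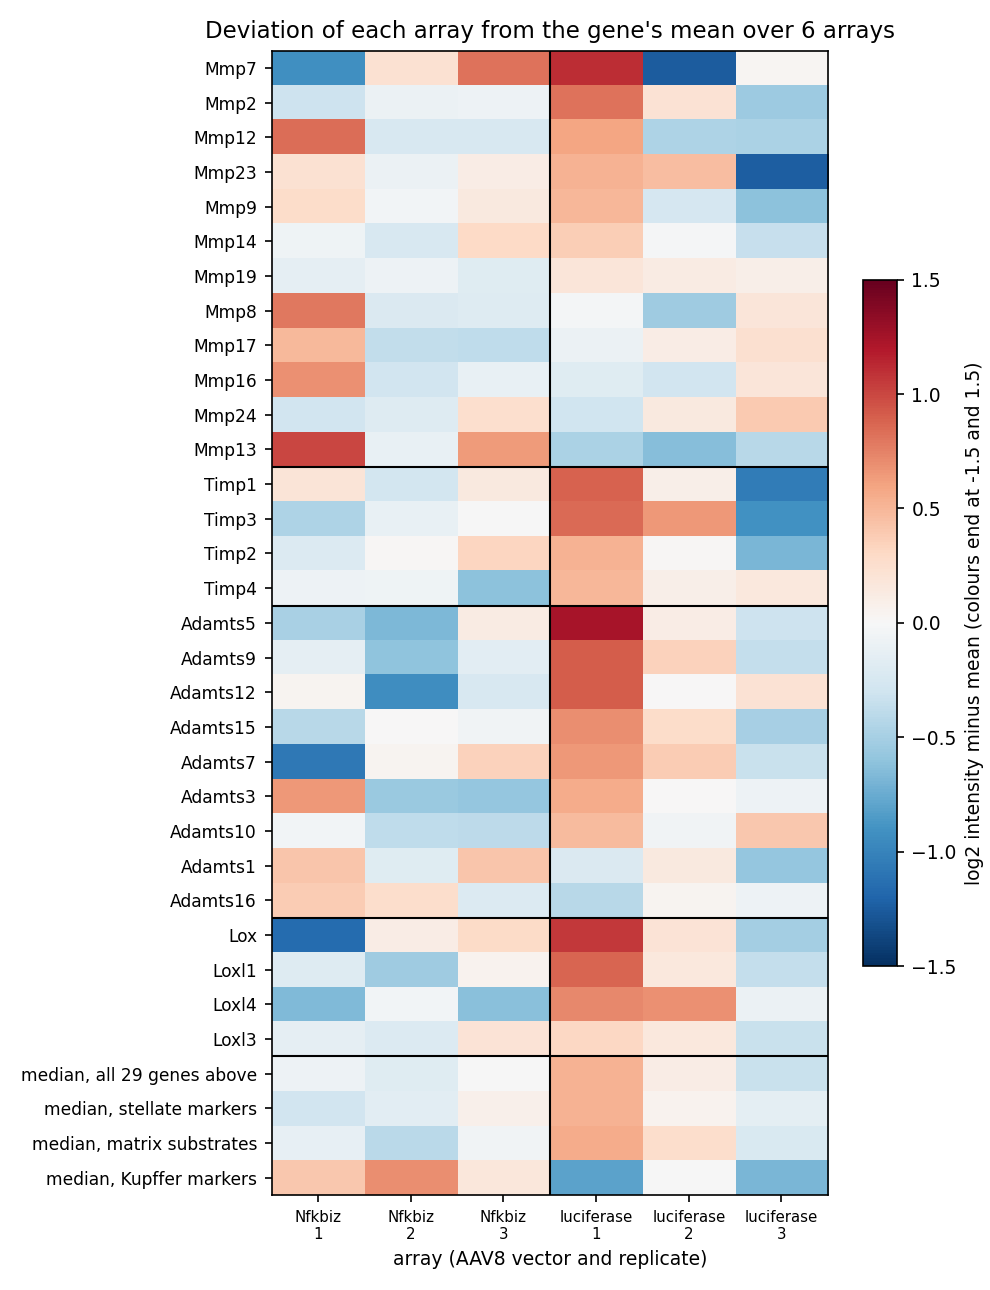
Deviation of log2 intensity on each array from the gene's mean over the 6 arrays (colour), for the 29 matrix genes by family, with medians of the set and of marker lists in the last 4 rows; AAV8-Nfkbiz arrays are on the left. The first luciferase array is the highest array for 20 of the 29 genes. Mmp13 instead deviates by 0.997, -0.11 and 0.63 on the AAV8-Nfkbiz arrays and by -0.47, -0.64 and -0.41 on the luciferase arrays.

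The set's values depended on which luciferase array was used. Without the first AAV8-luciferase array the median log2 difference of the 29 genes was -0.05, and Mmp13 alone had an unadjusted p below 0.05. Without the third AAV8-luciferase array the median was -0.41 and 7 genes had an unadjusted p below 0.05, namely Mmp13 with a positive difference and Adamts5, Adamts9, Loxl1, Loxl4, Mmp2 and Timp3 with negative ones. The share of all genes below that p was then 10.1% and 14.1%. No gene of the set passed an adjusted p of 0.05 in either case.

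Other genes of matrix turnover were counted for comparison, and 0 of them passed an adjusted p of 0.05. Of 28 genes that control matrix proteases, 0 were higher and 2 lower at an unadjusted p below 0.05, with a median log2 difference of -0.01. The shares of all genes at that p were 5.03% higher and 7.00% lower, so this count lay near the background. The low-density lipoprotein receptor-related protein gene Lrp1, whose product clears proteases together with their inhibitors, read 4238, 2851 and 3972 in AAV8-Nfkbiz livers and 5170.2, 4687 and 7798 in AAV8-luciferase livers (-0.66 ± 0.21, limma adjusted p = 0.258). The disintegrin protease genes Adam15 and Adam17 had differences of -0.47 ± 0.19 and -0.37 ± 0.17, and the protease inhibitor gene Tfpi2 had 0.33 ± 0.15.

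Of 19 genes of collagen modification and assembly, 16 had a negative difference with a median of -0.13, and 1 was higher and 1 lower at an unadjusted p below 0.05. Over all genes 52.2% were negative, and the counts at that p lay near the shares of 5.03% higher and 7.00% lower. Pcolce2, which enhances the cleavage of procollagen at its carboxyl end, read 211, 264 and 176 on the AAV8-Nfkbiz arrays and 85.8, 132 and 90.4 on the AAV8-luciferase arrays. The groups did not overlap, and the log2 difference was 1.09 ± 0.28 (limma adjusted p = 0.185). The prolyl 3-hydroxylase gene P3h1 read 218, 234 and 226 in AAV8-Nfkbiz livers and 334, 318 and 316 in AAV8-luciferase livers, again without overlap (-0.51 ± 0.17, limma adjusted p = 0.284). The collagen chaperone gene Serpinh1 and the prolyl 4-hydroxylase gene P4ha1 had -0.40 ± 0.19 and -0.34 ± 0.17.

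Among 25 matrix substrates 24 had a negative difference, with a median of -0.36, and 0 were higher and 6 lower at an unadjusted p below 0.05. Over all genes 52.2% were negative, and 5.03% were higher and 7.00% lower at that p. Col1a1 read 294, 243 and 259 in AAV8-Nfkbiz livers and 508, 369 and 316 in AAV8-luciferase livers (-0.56 ± 0.21). The von Willebrand factor gene Vwf had -1.10 ± 0.34, Col15a1 -1.72 ± 0.60 and Col6a1 -0.77 ± 0.27. Of the ADAMTS-like genes, which lack a protease domain, 4 of 7 were tested and 0 had an unadjusted p below 0.05. Their differences were -0.61 ± 0.29 for Adamtsl2, -0.86 ± 0.50 for Thsd4, 1.23 ± 0.74 for Adamtsl3 and 0.01 ± 0.25 for Adamtsl4.

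The 12 genes below the filter were Mmp1a, Mmp1b, Mmp3, Mmp10, Mmp11, Mmp20, Adamts4, Adamts6, Adamts8, Adamts18, Adamts19 and Adamts20. The stromelysin genes Mmp3, Mmp10 and Mmp11 were all among them. Intensities of the 12 on their brightest probe sets lay between 1.82 and 109 on the AAV8-Nfkbiz arrays and between 1.52 and 76.5 on the AAV8-luciferase arrays. No difference is given for them.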

How the data were processed

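Liver RNA of 6 mice, 3 per vector, was measured on Affymetrix 3′ arrays from 100 ng of total RNA, 1 array per liver. The deposited values are intensities made with MAS5, per the submitters' processing notes, with no version named. The trimmed means of the arrays, leaving out the extremes, were 495.4 to 496.5, which shows scaling to one target. The sources used here name no detection calls, scan dates or batches.

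Of 45037 probe sets, 34945 had 1 symbol in the platform annotation, 932 had several and 9160 were not listed and stay unnamed. All 78 probe sets of the set matched RefSeq (GRCm38.p6) by Entrez identifier and 0 symbols changed. Each gene was read by its brightest probe set, by mean log2 intensity. The dimmest 40% of probe sets (intensity up to 47.4) were left out, which left 13312 genes and 27022 probe sets. Log2 intensities, without pseudocount or further normalization, were fitted with limma 3.58.1 under R 4.3.3 (lmFit and trended eBayes), with two-sided tests, Benjamini-Hochberg adjustment over all genes or probe sets tested and a threshold of 0.05. Errors of differences are limma's SE and errors of intensities SD. The procedure was checked on 20 simulated data sets of 13312 genes, with 200 genes changed in each. Of log2 changes of 1 it recovered 42.5%, and of log2 changes of 2 it recovered 76.2%. On average 4.31% of the genes that passed were unchanged ones. Many changes of the size of a log2 difference of 1 would thus be missed. Alternatives were other probe set filters and choices, a pseudocount, 3 further normalizations, array weights, no intensity trend, a replicate block and leaving out each array. No label ties a sample to a named animal, so p-values measure the spread between these arrays, and their number limits the precision. Plots were made in Python 3.11.15 with matplotlib 3.10.9.

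The genes of the set, the pathway and marker lists and the genes given array by array were chosen with earlier results of these data known. Genes of the set given array by array were those with an unadjusted p below 0.05, those whose groups did not overlap and differed by 0.5 or more on the log2 scale, and a fixed list (Mmp2, Mmp9, Mmp12, Mmp13, Mmp14, Timp1, Timp2, Timp3, Lox, Loxl1 and Adamts1, with Adamts2 and Adamts13 not analysed here). For each pathway list, up to 4 genes with the smallest p are named, and Lrp1, Pcolce2, P3h1 and Col1a1 are given array by array as examples picked after their values were seen. Mmp7, Mmp8, Mmp19, Timp4, Adamts5, Adamts9 and Adamts12 were added after their values were seen.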

Additional observations from a re-analysis of the deposited data

How the results depend on the processing

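No gene and no probe set of the set passed limma's adjusted p of 0.05 under any of the alternatives run, the smallest adjusted p of a gene lying between 0.0889 and 0.408. Mmp13 had a positive difference and an unadjusted p below 0.05 in all 17 alternatives, with log2 differences from 0.77 to 1.32. Loxl4 had an unadjusted p below 0.05 in 11 of 15 and Adamts10 in 8 of 16. Genes past the threshold over the whole array numbered 30, and 62 with array weights, 18 with the mean of probe sets, 10 with the most variable probe set and 0 without limma's intensity trend, where 10.1% of genes had an unadjusted p below 0.05. Leaving out 1 array gave 8 to 19 of them. Genes of the set with an unadjusted p below 0.05 numbered 1 to 7 when 1 array was left out (8.61% to 14.1% of all genes). Genes without overlap then numbered 5 to 11 (26.3% to 32.9% of all genes). With the most variable probe set, 1 of 17 genes of the set tested showed no overlap, as did 16.3% of all genes. The median difference of the set ran from -0.41 to -0.05 without 1 array and from -0.18 to 0.0042 in the other alternatives. Signs turned for genes that had not passed. With array weights the log2 difference was -0.0285 for Mmp14, -0.0805 for Timp1 and -0.0320 for Timp2, and the mean of probe sets gave -0.0495 for Mmp14 and -0.30 for Timp2. Without 1 array the log2 difference ran from -0.67 to 0.0097 for Mmp2, from -0.13 to 0.59 for Mmp12, from -0.17 to 0.18 for Mmp14, from -0.47 to 0.50 for Timp1 and from -0.22 to 0.38 for Timp2. The cause of these turns was not tested. Over all genes, replicate numbers gave no sign of pairing, since deviations of same-numbered arrays correlated at -0.06, 0.07 and -0.03. With the replicate block 27 genes passed, 0 of them in the set. The block moved the SE of single genes both ways. For Mmp12, high on the first array of each group, it fell from 0.34 to 0.13 (limma unadjusted p = 0.109), and for Adamts1 it rose from 0.22 to 0.24.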

Other observations

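A few probe sets of Timp2 and Timp3 dropped sharply on the same arrays of different groups. Timp2 probe set 1450040_at read 32.2, 223 and 248 on the AAV8-Nfkbiz arrays and 270.3, 245 and 23.3 on the AAV8-luciferase arrays. Timp3 probe set 1449334_at read 31.1, 207 and 229.9 on the AAV8-Nfkbiz arrays and 295, 338 and 18.0 on the AAV8-luciferase arrays. The first AAV8-Nfkbiz array and the third AAV8-luciferase array were thus low on both probe sets. Of 27022 probe sets above the filter, 3 were at least 4-fold lower on these arrays than on each of the other 4, and the third was 1448393_at of the claudin gene Cldn7, at 16.2, 94.1 and 142 on the AAV8-Nfkbiz arrays and 169, 79.4 and 12.6 on the AAV8-luciferase arrays. This criterion was set after the values were seen. The brightest probe sets of both genes did not drop in that way on the first AAV8-Nfkbiz array, where Timp2 read 813 and Timp3 read 425.

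Below the filter, Adamts19 read 7.05, 6.88 and 4.97 on the AAV8-Nfkbiz arrays and 2.41, 1.58 and 1.90 on the AAV8-luciferase arrays, without overlap, at intensities far under the filter of 47.4. With no filter, 4 of the 41 genes showed no overlap, Adamts19 among them, as did 15.9% of all genes. Dimmer probe sets of other genes below the filter did so too. Those of Mmp23 (1417281_a_at), Timp4 (1423405_at), Mmp16 (1440161_at) and Adamts18 (1437574_at) were lower on the AAV8-Nfkbiz arrays. That of Adamts4 (1455965_at) was higher. The share of all probe sets below the filter without overlap was not counted. These probe sets were found by looking through dim readings and have no background beside them, so nothing is read from their number or direction.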
